A study of Mus musculus with 93 samples.

Results

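Macrophages labelled Mac were compared between the embryonic ages E12.5 and E10.5 (days of gestation) in 3 mouse tissues, brain, limbs and liver. The comparison used 12 of the 93 libraries of the series, chosen by their labels for cell type, tissue and age: 2 libraries from each tissue at each age, so 6 at E10.5 and 6 at E12.5. The whole series holds sorted macrophages together with 2 progenitor populations, labelled EMP and pMac, from many tissues and ages. Polyadenylated RNA was amplified and sequenced by SMART-Seq2, a full-length cDNA method for small cell numbers. The labels name no treatment, allele, strain or sort gate for any of the 6 groups, and both ages are described in the same terms. They also do not say which libraries of a group are technical and which are biological replicates, so every p-value measures only the spread between these libraries, which may be technical.

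Macrophages of the early embryo arise from yolk sac progenitors, spread through the blood and settle in each organ, where they take on the features of its resident macrophages: microglia in the brain and Kupffer cells in the liver. In the same interval the fetal liver becomes the main site of red cell production, and its macrophages sit at the centre of erythroblastic islands, where they attach to maturing red cell precursors and engulf the nuclei these expel. Red cells of the early embryo make embryonic globins, and the definitive red cells of the fetal liver make the adult forms. Macrophages clear dying cells through receptors such as Axl and Mertk and digest them in lysosomes.

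Gene levels are log2 values summed over a gene's transcripts, with a floor of 5.37 below which a transcript could not be told from an undetected one. A gene at 5.37 in a library was at the floor there. Where 1 of the groups compared lay at this value, the size of the difference is set in part by the choice of floor and is not a fold change. The deposited values are not counts, so the depth of each library is unknown; between 20507 and 25136 transcripts lay above the floor per library. The difference between ages was estimated with limma over all 12 libraries with tissue as a covariate. Calling a gene required a log2 difference of at least 1 in size together with an adjusted p (Benjamini-Hochberg) below 0.05. In bulk libraries such as these, fewer cells of a type and less RNA per cell cannot be told apart.

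The libraries carried the macrophage genes their label implies: none of 26 core macrophage genes, among them Csf1r, Adgre1, Cx3cr1 and the C1q chains, was at the floor in any of the 12. Brain E12.5 replicate 1 stood apart. Its mean level of the core genes was 8.87, against 11.28 to 13.13 in the other 11 libraries, its Csf1r level was 10.40 against 13.07 to 15.78, and its median Spearman correlation with the other libraries was 0.50 against 0.63 to 0.72. Neural genes were high in both brain E12.5 libraries, with a mean over 15 neural genes of 10.53 in replicate 1 and 9.35 in replicate 2, against 5.83 to 7.08 in the other 10. Both liver E12.5 libraries carried genes of other liver cells, with means of 11.43 and 11.68 over 23 erythroid genes other than globins (6.25 to 7.36 elsewhere), 8.35 and 9.27 over 19 hepatocyte genes (at most 6.96 elsewhere) and 9.01 and 9.67 over 13 endothelial genes (at most 6.21 elsewhere). The part of these other cell types in the results below was not tested, and results are given with and without brain E12.5 replicate 1. That library was set apart by its low core macrophage genes, so a rise of macrophage genes without it follows in part from that choice.

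Across the 3 tissues, 5 genes were called between E12.5 and E10.5. The adult beta-globin gene Hbb-bs, the chemokine gene Cxcl16, the tetraspanin gene Tspan7 and the alpha-tubulin gene Tuba1a rose, and Hp, which encodes haptoglobin, the plasma protein that binds free haemoglobin, fell. These 5 were 0.0395% of the 12667 genes tested, with 4 higher (0.0316%) and 1 lower (0.00789%), and all 5 had the same sign of difference in each tissue, as did 25.1% of all genes tested. Without the 4 liver libraries none of the 5 passed (adjusted p from 0.145 to 0.456), with Hbb-bs at 3.97, Cxcl16 at 4.02 and Hp at -4.64. Without the 4 brain libraries Hbb-bs and Cxcl16 passed (adjusted p = 0.0196 each), and Hp at -4.50 (adjusted p = 0.0754), Tuba1a at 2.50 (adjusted p = 0.166) and Tspan7 at 3.50 (adjusted p = 0.186) did not. At an unadjusted p under 0.05 there were 1617 genes, and the median difference over all genes was 0.04. The groups of 6 libraries did not overlap for 70 genes (0.553% of those tested), of which 27 were higher at E12.5 (0.213%) and 43 lower (0.339%).

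**Figure D1:**
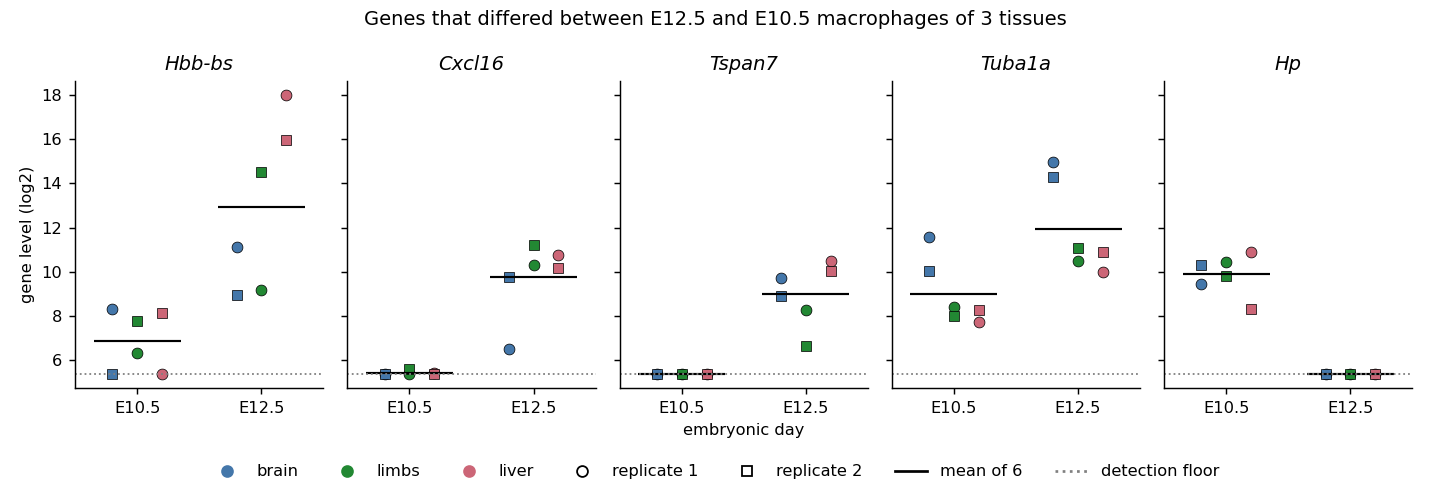
Levels (log2, vertical axis) of the 5 called genes in each of the 12 libraries, grouped by tissue and age, with the floor of 5.37 drawn as a line. Hp lies at the floor in all 6 E12.5 libraries and between 8.34 and 10.88 in the 6 E10.5 libraries, and Tspan7 lies at the floor in all 6 E10.5 libraries.

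Hp was detected in every E10.5 library and in no E12.5 library. Its level at E10.5 was 9.47 and 10.32 in brain, 10.43 and 9.83 in limbs and 10.88 and 8.34 in liver, and it was 5.37, the floor, in all 6 libraries at E12.5. The groups did not overlap. The mean fell from 9.88 ± 0.90 (SD, n = 6) to the floor, a difference of -4.51 ± 0.65 (SE; limma adjusted p = 0.00805), and the call held when any one of the 12 libraries was left out. Hp lies on chromosome 8 at 109575128 to 109579172, minus strand (mm10). In libraries outside the comparison, Hp was also above the floor at E10.25 in brain (7.56, 8.56 and 8.10), in limbs (7.16 and 9.25) and in 1 of 2 liver libraries (5.37 and 10.13). At E14.5 it was at the floor in both brain libraries and at 8.02 in the single liver library, just under the lowest E10.5 level. With E10.25 libraries in place of those of E10.5 the difference was -2.64 (adjusted p = 0.119).

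Hp belongs to a list of monocyte genes of which 8 were tested. Hp was the 1 member called, and the median difference over the 8 was -0.76. Ccr2, the chemokine receptor of inflammatory monocytes, was at 8.67 and 10.12 in brain, 7.27 and 9.02 in limbs and 10.14 and 8.50 in liver at E10.5, and at 5.37 and 8.95, 5.37 and 5.37, and 5.85 and 5.37 in the same tissues at E12.5. The groups overlapped through brain E12.5 replicate 2, and the difference of -2.91 ± 0.74 did not pass (adjusted p = 0.153). The 5 neutrophil genes tested all had differences below 0, with a median of -2.36 and none called. Among them Prtn3, the neutrophil protease proteinase 3, differed by -3.10 ± 0.74 (adjusted p = 0.148) and Mpo, myeloperoxidase, by -2.36 ± 0.78 (adjusted p = 0.264).

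Of the 4 adult globin genes measured Hbb-bs was called, and the median difference of the 4 was 4.06. Hbb-bs was at 8.32 and 5.37 in brain, 6.35 and 7.76 in limbs and 5.37 and 8.15 in liver at E10.5, and at 11.11 and 8.93, 9.16 and 14.49, and 17.99 and 15.96 in the same tissues at E12.5. The 2 liver E12.5 libraries and limbs E12.5 replicate 2 were highest, and the groups did not overlap. The mean rose from 6.89 ± 1.36 to 12.94 ± 3.76 (SD, n = 6 each), a difference of 6.05 ± 1.01 (SE; limma adjusted p = 0.0167). Leaving out 1 library at a time gave differences from 5.19 to 6.88, and the call was lost in 6 of the 12 such fits (brain E10.5 replicate 2, limbs E10.5 replicate 1 and each of the 4 liver libraries), with adjusted p from 0.0027 to 0.0979 over the 12. Hbb-bt, the second adult beta-globin gene, missed the threshold at 4.99 ± 0.97 (adjusted p = 0.0506) and passed it without brain E12.5 replicate 1 (5.27, adjusted p = 0.0373). The alpha-globin genes Hba-a1 and Hba-a2 differed by 2.61 ± 0.92 (adjusted p = 0.281) and 3.12 ± 0.94 (adjusted p = 0.213). Both pairs are nearly identical in sequence, so the split of reads within Hbb-bs and Hbb-bt, or within Hba-a1 and Hba-a2, is uncertain.

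None of the 3 embryonic globins measured was called, and all had differences below 0. Hba-x, the embryonic alpha-type chain, differed by -1.59 ± 0.78 (adjusted p = 0.396), Hbb-bh1 by -2.11 ± 0.84 (adjusted p = 0.324) and Hbb-y, the embryonic epsilon-type chain, by -0.23 ± 0.89 (adjusted p = 0.938). The direction of Hbb-y turned to above 0 when brain or limbs was left out (0.99 and 0.16). The tissues differed in direction: the median difference of the 3 embryonic globins was -4.03 within brain, -1.07 within limbs and 1.34 within liver.

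The promoters of the 3 beta-type genes whose levels are contrasted here are shown because the adult and embryonic members lie in 1 cluster on chromosome 7 and are driven by the same classes of factor. Each window runs from 250 bases before to 50 bases after the RefSeq start (GRCm38.p6, minus strand, printed in the direction of transcription), and capitals mark GATAAG (the GATA factor motif), CACCC (the motif of Krüppel-like factors) and CCAAT, each searched on either strand, so that capitals can also spell the reverse complement. RefSeq entries were found for 6 of 7 globin genes. Hbb-bs is at chr7:103827879-103828178, Hbb-bt at chr7:103813874-103814173 and Hbb-y at chr7:103853158-103853457.
Hbb-bs: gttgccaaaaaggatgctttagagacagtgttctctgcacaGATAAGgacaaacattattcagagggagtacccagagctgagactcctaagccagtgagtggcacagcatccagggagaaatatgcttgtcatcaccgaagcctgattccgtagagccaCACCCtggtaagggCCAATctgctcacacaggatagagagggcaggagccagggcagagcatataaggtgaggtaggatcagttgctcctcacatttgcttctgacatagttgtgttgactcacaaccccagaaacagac
Hbb-bt: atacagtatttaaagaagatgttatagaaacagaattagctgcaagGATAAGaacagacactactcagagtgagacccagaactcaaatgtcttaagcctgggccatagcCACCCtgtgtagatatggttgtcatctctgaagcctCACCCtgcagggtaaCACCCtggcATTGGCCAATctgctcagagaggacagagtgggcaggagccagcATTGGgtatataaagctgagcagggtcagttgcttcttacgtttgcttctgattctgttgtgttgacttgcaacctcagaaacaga
Hbb-y: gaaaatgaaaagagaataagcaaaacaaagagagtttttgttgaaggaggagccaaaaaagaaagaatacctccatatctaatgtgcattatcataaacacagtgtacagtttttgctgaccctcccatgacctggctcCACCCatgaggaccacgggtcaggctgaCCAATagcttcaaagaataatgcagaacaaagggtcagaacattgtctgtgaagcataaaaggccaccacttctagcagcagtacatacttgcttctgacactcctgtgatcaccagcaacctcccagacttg
Hbb-bs held 1 match to each motif, Hbb-bt 1 to GATAAG and 3 each to CACCC and CCAAT, and Hbb-y 1 each to CACCC and CCAAT and none to GATAAG, and no matches overlapped. Over 32851 promoters of this length, GATAAG was in 7.44%, CACCC in 57.5% and CCAAT in 37.4%. The adult pair was 72.7% identical over the aligned window, and Hbb-y was 55.0% identical to Hbb-bs and 56.2% to Hbb-bt. These matches describe the letters of the windows only.

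The balance of adult to embryonic globin RNA within each library, was defined after the values were seen and is given as a description. It is the log2 of the summed adult genes minus the log2 of the summed embryonic genes. For the beta-type genes it was -4.89 and -2.10 in brain, -4.0 and -2.38 in limbs and -3.20 and -4.11 in liver at E10.5, and 2.01 and 1.0, 1.54 and 5.06, and 1.97 and 4.50 at E12.5. No E12.5 library overlapped an E10.5 library. For the alpha-type genes the range was -1.81 to 0.75 at E10.5 and 2.51 to 7.08 at E12.5, also without overlap. The 7 libraries of E10.25 lay between -6.90 and -1.68 for the beta-type balance, all below 0 as at E10.5, with 4 of them below the E10.5 range and 1 above it. At E14.5 the beta-type balance was 1.43 and -3.80 in brain and 1.18 in liver, so 1 of the 3 later libraries lay in the E10.5 range. In that library, brain replicate 2, the adult beta-type genes were at the floor of 5.37, so its balance is set in part by the floor. The same holds for brain E10.25 replicate 3. The alpha-type balance at E14.5 was 3.16 and 2.26 in brain and 2.93 in liver, and the 2.26 of brain replicate 2 lay below the E12.5 range.

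**Figure D2:**
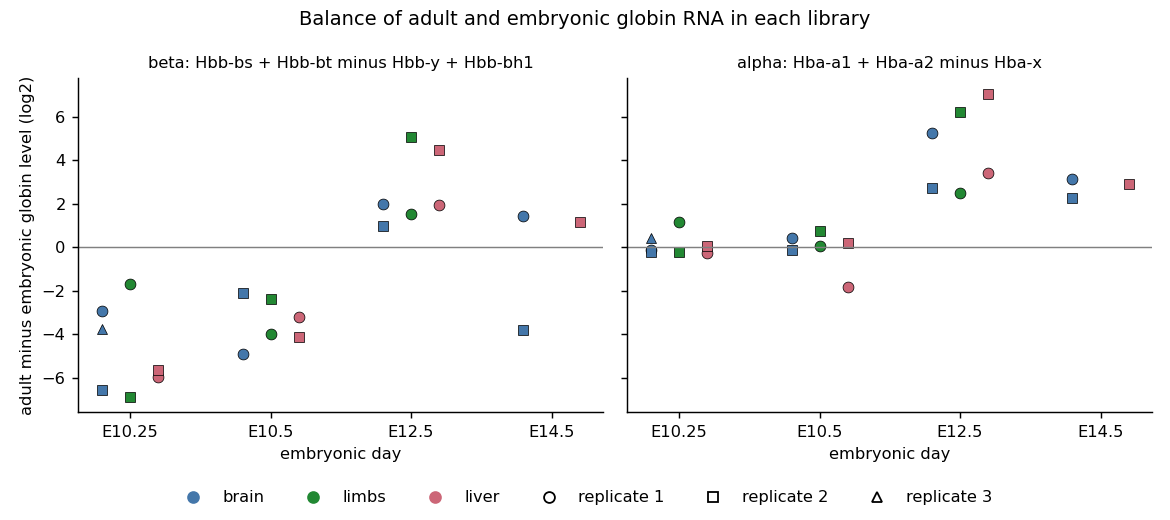
Adult minus embryonic globin level (log2, vertical axis) in each of the 12 libraries and in the E10.25 and E14.5 macrophage libraries of the same tissues, for the beta-type genes and the alpha-type genes, by tissue, age and replicate. Every E12.5 library lies above every E10.5 library for both chains.

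Red cell genes other than globins differed mainly in liver. Over the 3 tissues all 22 tested were above 0, with a median of 1.67 and none called. Within brain the median was 0.0 and within limbs 0.05, against 4.40 within liver. Limbs E12.5 replicate 2, with adult globins at a mean of 14.29, had a mean of 7.36 over the other erythroid genes. Urod, an enzyme of heme synthesis in that list, was called without brain E12.5 replicate 1 (4.11 ± 0.79, adjusted p = 0.0377) and not with all libraries (adjusted p = 0.133).

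Cxcl16, a membrane-anchored chemokine that also acts as a scavenger receptor, was at or near the floor at E10.5 and higher at E12.5 in all tissues. It was at 5.37 and 5.37 in brain, 5.37 and 5.59 in limbs and 5.43 and 5.37 in liver at E10.5, and at 6.51 and 9.78, 10.29 and 11.20, and 10.75 and 10.16 at E12.5. The groups did not overlap, and brain E12.5 replicate 1 was the lowest of the later libraries. The mean rose from 5.42 ± 0.09 to 9.78 ± 1.68 (SD, n = 6 each), a difference of 4.36 ± 0.72 (SE; limma adjusted p = 0.0167), and the call was lost in 6 of the 12 fits that left out a library (brain E12.5 replicate 2, limbs E10.5 replicate 1 and each of the 4 liver libraries). Cxcl16 lies on chromosome 11 at 70453983 to 70459984, minus strand, and overlaps Zmynd15 on the opposite strand. It was the 1 gene called of 11 chemokines tested, whose median difference was 0.36. In libraries outside the comparison, Cxcl16 was at 5.37, 7.50 and 9.51 in brain at E10.25, and at most 5.65 in limbs and liver at that age. At E14.5 it was at 7.50 and 5.37 in brain and at 10.59 in liver. With E10.25 libraries in place of those of E10.5 the difference was 3.48 (limma adjusted p = 0.0971).

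Tspan7, a tetraspanin of the cell membrane, was at the floor in all 6 E10.5 libraries. At E12.5 it was at 9.72 and 8.89 in brain, 8.29 and 6.66 in limbs and 10.48 and 10.04 in liver, a mean of 9.01 ± 1.40 (SD, n = 6). The groups did not overlap and limbs were lowest. The difference was 3.64 ± 0.66 (SE; limma adjusted p = 0.0440), and this was the least stable of the 5 calls, kept only without brain E12.5 replicate 1, limbs E10.5 replicate 2 or limbs E12.5 replicate 2 and lost in the other 9 of the 12 fits that left out a library. Tspan7 lies on the X chromosome at 10485158 to 10596605, plus strand. In libraries outside the comparison, it was at 6.40, 9.44 and 5.37 in brain, 5.37 and 5.37 in limbs and 6.20 and 5.37 in liver at E10.25. At E14.5 it was at 10.80 and 5.37 in brain and at 5.38 in liver. With E10.25 libraries in place of those of E10.5 the difference was 2.895 (limma adjusted p = 0.119).

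Tuba1a, the alpha-tubulin isotype of growing neurons and other cells that remodel their shape, was at 11.57 and 10.02 in brain, 8.42 and 8.01 in limbs and 7.75 and 8.28 in liver at E10.5. At E12.5 it was at 14.95 and 14.28 in brain, 10.51 and 11.08 in limbs and 10 and 10.89 in liver. Within each tissue both later libraries exceeded both earlier ones, although over all 12 libraries the groups overlapped because brain was higher at both ages. The mean was 9.01 ± 1.49 at E10.5 and 11.95 ± 2.11 at E12.5 (SD, n = 6 each), a difference of 2.94 ± 0.44 (SE; limma adjusted p = 0.00805), and the call held when any one library was left out. It was lost without all 4 brain libraries (2.50, adjusted p = 0.166), without all 4 liver libraries (3.20, adjusted p = 0.145) and with E10.25 libraries in place of those of E10.5 (2.82, adjusted p = 0.0721). Tuba1a lies on chromosome 15 at 98949837 to 98953703, minus strand. Outside the comparison, Tuba1a was at 9.65, 12.98 and 8.62 in brain, 8.79 and 10.62 in limbs and 6.51 and 8.61 in liver at E10.25. At E14.5 it was at 12.06 and 11.30 in brain and at 6.62 in liver, the last below both liver libraries of E10.5. Its near-identical neighbours were not called: Tuba1b differed by 0.07 ± 0.59 (adjusted p = 0.973) and Tuba1c by -0.24 ± 0.64 (adjusted p = 0.910), though the split of reads among the 3 is uncertain. Neural genes were high in the 2 brain E12.5 libraries, where Tuba1a was also highest, and near the floor in limbs and liver.

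Just outside the threshold, 6 genes shared an adjusted p of 0.0506 and are named here after their values were seen. Marcksl1, an actin-binding protein, differed by 2.27, the hydrolase gene Abhd4 by 2.78, Gpr155 by 2.91, the imprinted zinc finger gene Plagl1 by 3.57 and Hbb-bt by 4.99. Emb, which encodes the membrane glycoprotein embigin, had a difference of -2.88, with levels of 10.56 to 12.90 at E10.5 and 7.74 to 11.13 at E12.5. The groups of Marcksl1, Abhd4 and Gpr155 did not overlap, and those of Plagl1, Hbb-bt and Emb did.

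Leaving out brain E12.5 replicate 1 gave 16 called genes of 12175 tested (0.131%), 14 higher (0.115%) and 2 lower (0.0164%), with 1358 at an unadjusted p under 0.05. The genes below were chosen after these values were seen. Low core macrophage genes, C1qa among them, had set that library apart, so calls of macrophage genes gained without it are no separate support. C1qa, a chain of the complement component C1q, was at 11.81 and 12.97 in brain, 11.17 and 10.98 in limbs and 8.15 and 10.42 in liver at E10.5, and at 9.46 and 13.96, 15.11 and 12.22, and 13.92 and 13.92 at E12.5. The later library lower than its tissue's earlier ones was brain replicate 1. Without it the difference was 3.10 ± 0.57 (limma adjusted p = 0.0324), and with all 12 libraries it was 2.18 ± 0.79 (adjusted p = 0.302). Axl, the receptor for dying cells, gave 2.63 ± 0.50 (adjusted p = 0.0373) without that library and 2.18 ± 0.55 (adjusted p = 0.153) with it. Ctsd, the lysosomal protease cathepsin D, gave 2.29 ± 0.45 (adjusted p = 0.0377) and 1.41 ± 0.72 (adjusted p = 0.409). Olfml3, a secreted glycoprotein enriched in microglia, was at 5.37 to 5.46 in limbs and liver at E10.5 and at 8.16 to 11.83 there at E12.5. Its difference was 3.99 ± 0.71 (adjusted p = 0.0255) without the library and 3.06 ± 0.86 (adjusted p = 0.182) with it. Bcl2l1, which encodes the survival protein BCL-XL, differed by 3.13 ± 0.61 (adjusted p = 0.0377), the tetraspanin gene Cd82 by 4.0 ± 0.78 (adjusted p = 0.0377), the transporter gene Abcc3 by 3.67 ± 0.70 (adjusted p = 0.0373) and Gpr155 by 3.03 ± 0.62 (adjusted p = 0.0488). Gria3, a glutamate receptor subunit gene, fell by 3.95 (SE 0.78, adjusted p = 0.0377).

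**Figure D3:**
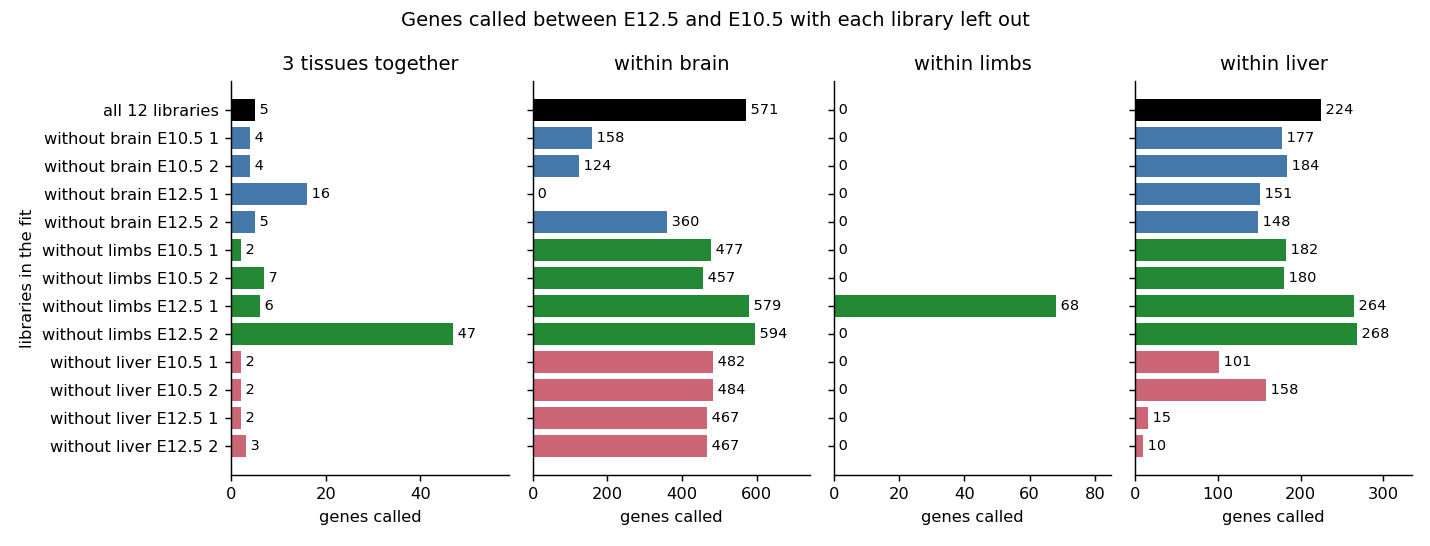
Number of genes called between E12.5 and E10.5 when each of the 12 libraries was left out in turn (horizontal bars from 0, coloured by the tissue of the library left out, the black bar for all 12 libraries), over the 3 tissues together and within brain, limbs and liver, each on its own scale. Over the 3 tissues together the count with all libraries was 5 and the others ranged from 2, without limbs E10.5 replicate 1, either liver E10.5 library or liver E12.5 replicate 1, to 47, without limbs E12.5 replicate 2.

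No core macrophage gene was called. Over the 26 tested the median difference was -0.02 and 12 were above 0, against 51.9% of all genes tested above 0. Csf1r, which encodes the CSF1 receptor that macrophages need to survive, was at 14.44 and 14.30 in brain, 14.48 and 14.38 in limbs and 13.07 and 13.39 in liver at E10.5, and at 10.40 and 14.66, 15.78 and 15.41, and 14.44 and 14.46 at E12.5. Brain E12.5 replicate 1 was the lowest of all and the groups overlapped, with a difference of 0.18 ± 0.66 (adjusted p = 0.935). Adgre1, an adhesion receptor used as a macrophage marker, differed by 0.90 ± 0.69 (adjusted p = 0.599), Cx3cr1, the fractalkine receptor, by 0.45 ± 0.63 (adjusted p = 0.803) and Mrc1, the mannose receptor, by -0.49 ± 0.52 (adjusted p = 0.724). Within brain the median over the 26 was -1.77 with none above 0, and it was -0.01 with 13 above 0 without brain E12.5 replicate 1. With libraries centred on their detected median these medians were -1.07 and 0.69, and that over the 3 tissues turned to 0.14. Within limbs and liver it was 0.74 and 0.83, with 20 above 0 in each.

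Most lysosomal genes had differences above 0 in limbs and liver, although no single gene passed the test there. The list holds 32 hydrolases and membrane proteins. The median difference was 1.19 within limbs, with 31 of 32 above 0, and 1.19 within liver, with 30 above 0. Over all genes the medians were 0 and 0.117 and the shares above 0 were 49.2% and 55.2%. With libraries centred on their detected median these shares were 40.6% and 53.4%. Mean levels of the list in limbs were 11.11 and 10.82 at E10.5 and 12.84 and 11.43 at E12.5, so the rise was larger in replicate 1. Within brain 3 were above 0 and the median was -1.29, and without brain E12.5 replicate 1 these became 18 and 0.29, or 30 and 0.99 with libraries centred on their detected median. Over the 3 tissues the median was 0.41 with 27 above 0, and 0.95 with 31 above 0 and Ctsd called without that library. Ctsb, cathepsin B, was at 14.02 and 13.77 in limbs and 13.35 and 15.33 in liver at E10.5, and at 16.09 and 14.14, and 16.13 and 15.78 at E12.5. In each of these tissues both later libraries exceeded both earlier ones. Of 15 genes of the vacuolar ATPase, the pump that acidifies lysosomes, none was called and the median was 0.42.

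**Figure D4:**
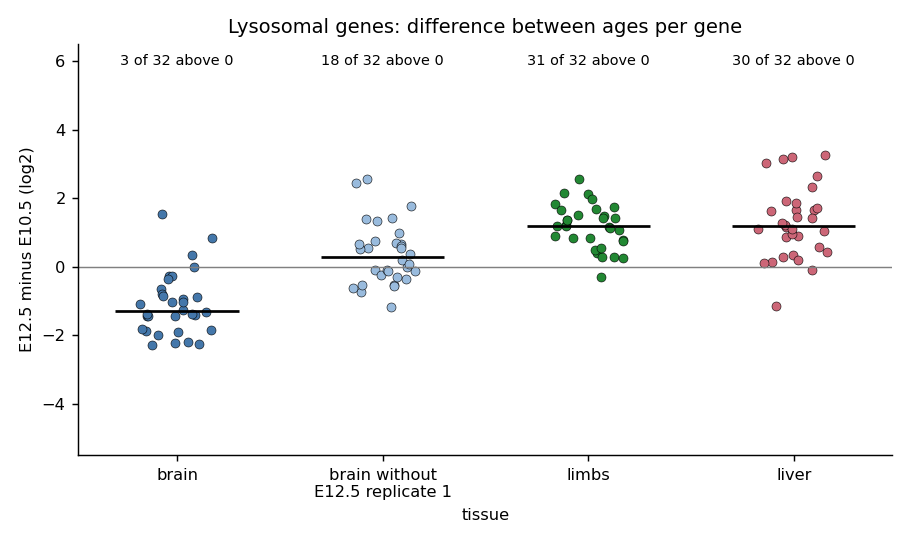
Differences between E12.5 and E10.5 (log2, vertical axis) for each of 32 lysosomal genes, within brain, within brain without E12.5 replicate 1, within limbs and within liver, with a line at 0. Points lie above 0 for 3, 18, 31 and 30 genes in that order.

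Microglia genes also depended on that library. Of 22 tested none was called with all libraries (median 0.77, 17 above 0), and Olfml3 was called without brain E12.5 replicate 1 (median 1.32, 20 above 0). Within brain the median moved from -0.38, with 8 above 0, to 1.77, with 19 above 0, when that library was left out. With libraries centred on their detected median the first of these turned to 0.31, with 14 above 0. P2ry12, the ADP receptor of resting microglia, was at 10.52 and 10.74 in brain at E10.5 and at 7.97 and 13.65 at E12.5, so the brain E12.5 libraries were the lowest and the highest of the 4. Tmem119, a microglial surface protein, was at 9.46 and 10.36 at E10.5 and at 5.93 and 12.48 at E12.5 in brain, the same arrangement. Sall1, the transcription factor that marks microglia, was at 7.72 and 7.25 in brain at E10.5 and at 9.52 and 10.73 at E12.5, both higher. Its difference was 2.65 ± 0.85 within brain (adjusted p = 0.124) and 1.30 ± 0.66 over the 3 tissues (adjusted p = 0.409). Microglia genes were also above 0 for 19 of 22 within limbs (median 1.68) and 14 of 22 within liver (median 0.81).

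Genes of DNA replication had mostly negative differences in brain. Of 30 tested, 1 was above 0 within brain and the median was -1.35, and without brain E12.5 replicate 1 these were 1 and -1.38. Over all genes tested within brain 44.2% were above 0 and the median was -0.13. With libraries centred on their detected median these became 65.4% and 0.56, and the replication genes had 5 above 0 and a median of -0.66. The median was -0.45 within limbs and 0.32 within liver, and none of the 30 was called in any of these comparisons. Mcm5, a subunit of the replicative helicase, was at 11.68 and 11.61 in brain at E10.5 and at 9.19 and 10.15 at E12.5, with no overlap and a difference of -1.97 ± 0.51 (adjusted p = 0.0575), or -1.27 with that centring (adjusted p = 0.219). It passed when limbs E12.5 replicate 1 or limbs E12.5 replicate 2 was left out of the fit. Mki67, the proliferation marker Ki-67, was at 13.37 and 13.64 and then at 11.62 and 11.60 in brain, a difference of -1.90 ± 0.60 (adjusted p = 0.118), or -1.20 with that centring, and within limbs and liver it differed by 0.03 and -0.15. Top2a, the mitotic topoisomerase, differed by -0.35 ± 0.52 within brain. The 30 mitosis genes had a main median of -0.23 and none called.

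Some genes of the fetal programme were called within single tissues, among them Prtg of the let-7 and Lin28 pathway in liver, and Kit, Plagl1 and Sgce in brain. Over the 3 tissues none was called. Of 13 genes of the let-7 and Lin28 pathway, 2 were above 0, the median was -0.56 and none was called. Lin28b, the RNA-binding protein that blocks let-7 microRNA maturation in fetal cells, was at 9.49 and 9.79 in brain, 8.38 and 8.14 in limbs and 7.70 and 9.67 in liver at E10.5, and at 7.68 and 7.59, 5.37 and 5.37, and 7.84 and 7.38 at E12.5. It was lower in all later libraries of brain and limbs and overlapped in liver, with a difference of -1.99 ± 0.64 (adjusted p = 0.248). Imprinted growth genes were above 0 for all 12 tested over the 3 tissues, with a median of 1.14 and none called, and within limbs for 5 of 12 with a median of 0.0. Kit, a receptor tyrosine kinase of blood progenitors, differed by 0.80 ± 0.67 (adjusted p = 0.632), and Id3, a transcription regulator of Kupffer cells, by 1.37 ± 0.61 (adjusted p = 0.365).

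**Figure D5:**
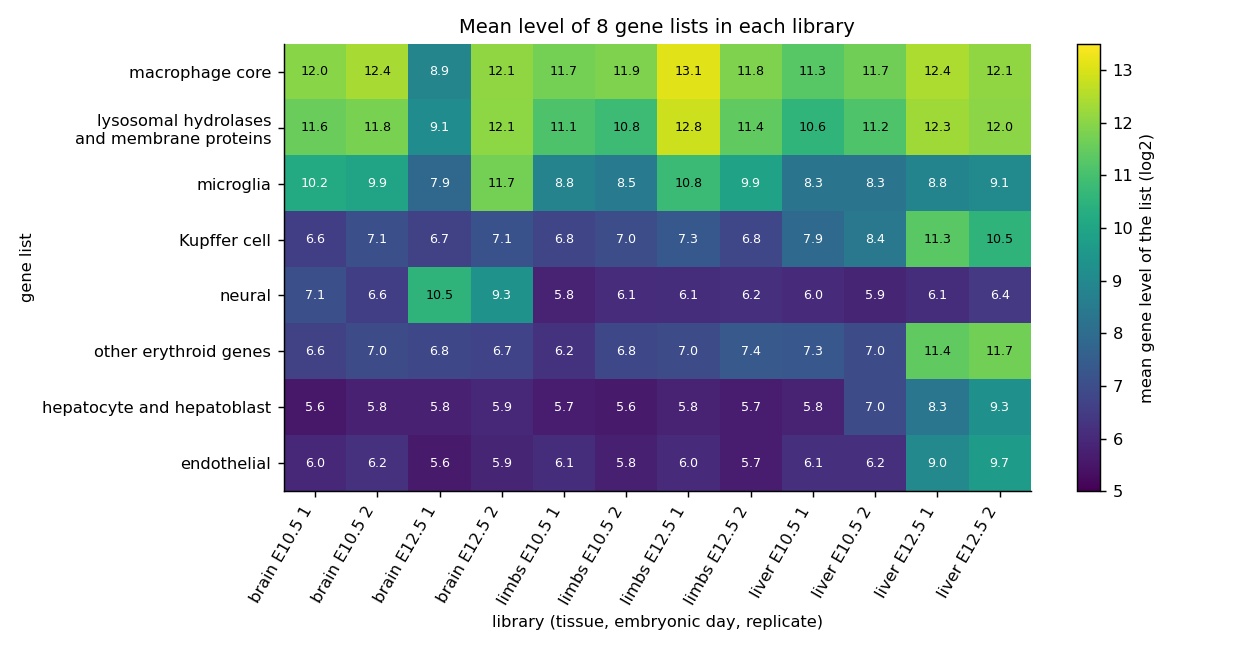
Mean level (log2, colour scale) of 8 gene lists in each of the 12 libraries (columns, by tissue and age). Brain E12.5 replicate 1 is low for macrophage core genes at 8.87, both brain E12.5 libraries are high for neural genes and both liver E12.5 libraries for erythroid, hepatocyte, endothelial and Kupffer cell genes.

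Within liver, 7 genes of Kupffer cells rose. In this fit each tissue and age had its own mean and the 12 libraries shared 1 estimate of the spread. There were 224 genes called (1.77% of 12667), 200 higher (1.58%) and 24 lower (0.189%), and the 18 Kupffer cell genes tested had a median of 2.86. Marco, a scavenger receptor for bacteria and particles, was at 5.37 and 6.74 at E10.5 and at 14.44 and 13.35 at E12.5, a difference of 7.84 ± 0.88 (limma adjusted p = 0.00149). Both later libraries were far above both earlier ones, and in brain and limbs it was at most 7.02. Cd5l, a secreted scavenger protein of tissue macrophages, was at 5.37 and 7.95 and then at 14.90 and 12.98 (7.28 ± 1.09, adjusted p = 0.00545). Clec4f, the Kupffer cell lectin, was at the floor and then at 11.28 and 10.46 (5.50 ± 0.66, adjusted p = 0.00155). Again neither pair overlapped. Spic, the transcription factor of iron-recycling macrophages, rose by 6.45 ± 0.81 (adjusted p = 0.00211), Fcna, the ficolin of macrophages, by 3.92 ± 0.60 (adjusted p = 0.00607), and C6 and Cdh5 also passed. Cdh5 is an endothelial cadherin that stands in the endothelial list too. Timd4, a receptor for phosphatidylserine on Kupffer cells, was at 10.61 and 11.35 and then at 12.17 and 12.16, a difference of 1.18 ± 0.91 (adjusted p = 0.641).

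Genes of other liver cells were called in the same comparison. Of 22 erythroid genes other than globins 12 were called, with a median of 4.40. Slc4a1, the anion exchanger of the red cell membrane, was at 5.37 and 5.37 and then at 12.62 and 12.12 (7.0 ± 0.89, adjusted p = 0.00234), and Alas2, the first enzyme of erythroid heme synthesis, at 5.37 and 7.11 and then at 13.32 and 12.56 (6.70 ± 0.95, adjusted p = 0.00391). Alas2 overlaps Apex2 on the opposite strand. Of 17 hepatocyte genes 10 were called, among them Alb, serum albumin, at 5.37 and 6.34 and then at 12.03 and 12.62 (6.47 ± 0.65, adjusted p = 0.000874), and Afp, alpha-fetoprotein, at 8.34 and 9.57 and then at 12.99 and 13.15 (4.11 ± 0.87, adjusted p = 0.0406). The Afp call was lost in 10 of the 12 fits that left out a library. Of 13 endothelial genes 7 were called, among them Cldn5, a tight junction protein, which rose by 4.75 ± 0.48 (adjusted p = 0.000874), and Stab2, a scavenger receptor of sinusoidal endothelium counted with the phagocytic receptors, rose by 6.15 ± 0.73 (adjusted p = 0.00155). These genes and those of Kupffer cells moved in the same libraries, and their parts were not tested apart. Outside the comparison, liver libraries of E10.25 had Alb at 5.37 and 11.87 and Afp at 5.37 and 13.52. They had Slc4a1 at 5.37 and 7.02 and Alas2 at 5.37 and 9.22. Afp in E10.25 replicate 2 was thus above both E12.5 levels. In the single E14.5 liver library Alb, Afp, Slc4a1 and Alas2 were at 10.19, 10.67, 11.41 and 12.13.

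Iron and heme genes rose within liver for 4 of 20 tested, Spic, Fech, Blvrb and Nqo1, with a median of 1.5. Fech, the last enzyme of heme synthesis, was at 8.27 and 6.04 and then at 12.89 and 12.61 (5.60 ± 0.94, adjusted p = 0.0107). Blvrb, biliverdin reductase B, was at 8.59 and 8.92 and then at 12.68 and 12.78 (3.98 ± 0.57, adjusted p = 0.00425). Liver libraries of E10.25 had Fech at 10.61 and 11.07 and Blvrb at 9.79 and 11.15, above the E10.5 levels of both genes. Hmox1, the heme oxygenase of iron-recycling macrophages, was at 13.55 and 14.15 and then at 15.43 and 15.66, without overlap but not past the threshold (1.69 ± 0.99, adjusted p = 0.511), and Slc40a1, the iron exporter ferroportin, differed by 1.16 ± 1.14 (adjusted p = 0.720). Other genes called within liver were Il1rn (2.91), the growth factor genes Gdf15 (3.97) and Hbegf (3.07), the desaturase gene Scd1 (3.85), the fatty acid binding protein gene Fabp4 (3.20), the glucose transporter gene Slc2a1 (4.89), Adm (1.55), Mmp9 (3.41), Bhlhe40 (3.04) and Ear2 (3.89). Klf4, Prtg and S100a8 fell by 2.86, 3.50 and 2.57. Many of these genes were at the floor in most other libraries, so their error rests on few of them. The calls of Il1rn and Slc2a1 were each lost in 10 of the 12 fits that left out a library. Without brain E12.5 replicate 1 there were 151 calls within liver (1.24% of 12175, 1.13% higher and 0.115% lower), with 6 Kupffer cell, 9 erythroid, 6 hepatocyte and 4 endothelial genes among them, and without liver E12.5 replicate 1 or 2 there were 15 and 10. Without liver E10.5 replicate 1 there were 101, and without brain E12.5 replicate 2 there were 148.

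Within brain, the calls included neural genes and all were lost without 1 library. There were 571 genes called (4.51% of 12667), 513 higher (4.05%) and 58 lower (0.458%), and without brain E12.5 replicate 1 none was called (727 at an unadjusted p under 0.05). Fewer genes were also called without any other brain library, and each such fit left 1 library in a group. Without brain E12.5 replicate 2 most of the calls were lower, against most higher with all libraries. Of 15 neural genes 7 were called higher, with a median of 3.20. Map2, a microtubule protein of neurons, was at 5.37 and 5.88 and then at 11.90 and 10.31, without overlap (5.48 ± 0.63, adjusted p = 0.00231), and it was at the floor in every limbs and liver library. Tubb3, a neuronal beta-tubulin, rose by 5.23 ± 0.72 (adjusted p = 0.00326), and Fabp7 (4.54), Sox11 (4.14), Nefl (2.88), Neurod1 (2.38) and Pax6 (2.26) passed as well. Tubb3 overlaps another annotated gene on the same strand.

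Some genes called within brain stood in other lists, among them those of macrophage and progenitor genes. Stab1, a scavenger receptor, was at 15.64 and 15.70 and then at 10.73 and 12.15, and fell by 4.23 (SE 0.64, adjusted p = 0.00485). Dab2, an endocytic adaptor and the 1 core macrophage gene called here, was at 13.78 and 14.82 and then at 10.95 and 10.94, and fell by 3.36 (SE 0.63, adjusted p = 0.0128). In both genes the 2 later libraries lay together below the earlier ones, although brain E12.5 replicate 2 had a core macrophage mean of 12.08, within the range of the other libraries. Stab1 overlaps Nt5dc2 on the opposite strand. Kit was at the floor and then at 8.95 and 7.79 (3.0 ± 0.75, adjusted p = 0.0490), Mycn rose by 3.97 (adjusted p = 0.0360), and the imprinted genes Plagl1 and Sgce by 4.65 and 3.32. Tyro3, a receptor of the Axl family, rose by 2.46, the lipid genes Dgat2, Vldlr and Fabp3 by 2.82, 2.59 and 2.31, and Blvra, Gpi1 and Prtn3 fell by 2.49, 2.58 and 3.78. Of the genes named here that rose, all but Dgat2 were higher in brain E12.5 replicate 1 than in replicate 2, as was the mean of the neural genes. The part of neural cells in these rises was not tested. The calls of Kit and Plagl1 were lost in 11 and 10 of the 12 fits that left out a library.

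Within limbs no gene was called by limma (0% of 12667, with 1000 at an unadjusted p under 0.05), and 68 were called without limbs E12.5 replicate 1. The limbs differences of the 5 genes called over the 3 tissues were 4.77 for Hbb-bs, 5.26 for Cxcl16, 2.11 for Tspan7, 2.58 for Tuba1a and -4.76 for Hp. Their adjusted p-values within limbs ran from 0.226 to 0.564.

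The age difference itself differed between tissues for 231 genes (1.82% of 12667) by the F test of the age by tissue terms, and for none without brain E12.5 replicate 1 (991 at an unadjusted p under 0.05). It was 70 without brain E12.5 replicate 2, 157 without limbs E12.5 replicate 1 and 0 without any one of the other libraries. Against the mean of the other tissues, 247 genes were called for brain (1.95%, with 1.74% higher and 0.205% lower), 93 for liver (0.734%, with 0.687% higher and 0.0474% lower) and none for limbs (1450 at an unadjusted p under 0.05). The brain genes with the largest contrasts were Plxna3, Nnat, Wdr47 and Map2. Nnat, an imprinted gene of the developing nervous system that overlaps Blcap on the opposite strand, was at 5.76 and 5.37 and then at 11.59 and 11 in brain, and differed by 0.24 within limbs and 0.04 within liver. Plxna3, a semaphorin receptor, was at 5.73 and 5.52 and then at 10.12 and 8.87 in brain, but at 7.85 and 8.37 and then at the floor in limbs, the opposite arrangement. The liver genes were the red cell genes Slc4a1, Alas2 and Hemgn, with Tmcc2. For limbs the 2 genes with the smallest p, not called, were A430078G23Rik and Cdhr3, with limbs differences of -3.06 and 2.25. Of the 5 genes called over the 3 tissues none had an interaction adjusted p under 0.05, which does not show that they moved alike.

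The other libraries of brain and liver, at E10.25 (5) and E14.5 (3), were compared in the same way, and 0 of 11283 genes were called by limma (836 at an unadjusted p under 0.05). Hbb-bs differed by 3.74 ± 1.32 (adjusted p = 0.569), Axl by 4.11, Hp by -1.64, Cxcl16 by 1.204, Tspan7 by 0.51 and Tuba1a by 0.48. Each of these genes had the sign of the E12.5 to E10.5 difference and none passed the test. Axl was not among the 5 genes called over the 3 tissues. Plagl1 at -0.33 and Id3 at -0.98 had the opposite sign, and the share of all genes that kept theirs was not computed. The sign of Cxcl16, Tspan7 and Tuba1a turned when 1 of these libraries was left out.

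The remaining lists had no gene called over the 3 tissues. They comprised 30 macrophage transcription factors (median -0.48), 12 progenitor and growth genes (-0.36), 22 pattern recognition receptors (-0.14), 23 interferon response genes (-0.20), 14 antigen presentation genes (0.02), 28 cytokine and chemokine receptors (-0.45), 21 cytokines and growth factors (0.39) and 16 purinergic and homeostatic receptors (0.54). The other receptor and process lists were 23 phagocytic and complement receptors (median -0.14), 20 scavenger and lectin receptors (0.84), 24 adhesion and migration genes (-0.05), 19 stress and immediate early genes (-0.08), 15 cyclins and inhibitors (0.77), 22 genes of translation and ribosome biogenesis (-0.34) and 9 genes of skin, lung and kidney macrophages (0.13). The metabolic lists gave medians of 0.30 for 15 genes of cholesterol efflux, 0.26 for 19 of cholesterol synthesis, 0.29 for 17 of lipid uptake and storage, -0.32 for 21 of glycolysis, 0.42 for 16 of the hypoxia response and -0.22 for 26 of the respiratory chain. Markers of megakaryocytes (9 tested, median 0.38), mast cells (4, 0.02), lymphoid cells (3, 0.47) and mesenchyme, cartilage and muscle (13, 0.89) had no gene called either.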

How the data were processed

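The authors deposited 1 table of log2 values, 1 row per Ensembl transcript (37521) and 1 column per library (93); base 2 was inferred from the range of the values, 0.836 to 19.0. The submitters' processing notes name Bowtie 1.1.1, DESeq2 and mm10 without roles, and no source used here states the normalization. Undetected transcripts sit at a fixed offset per library, at most 4.87, so a floor of 5.37 was set above them. Of the transcripts, 36714 were matched by ID to the GRCm38 annotation. Linear values above the floor were summed per gene, and 12667 of 14189 genes reached 6.37 in at least 2 libraries. limma 3.58.1 (R 4.3.3, intensity trend, Benjamini-Hochberg adjustment) tested ages with tissue as covariate, and within tissues in a fit with 1 mean per group. The script was tested on simulated data. Tables used Python 3.11.15 with pandas 2.3.3.

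By the small deviations of single undetected transcripts from each library's offset, the 93 libraries were divided into 2 sets, of 60 and 33. The number of sets was fixed in advance. At each age 2 of the 6 libraries compared here belong to the larger set of 60. These are brain and limbs replicate 1 at E10.5, and limbs and liver replicate 2 at E12.5. Set and age are thus unbalanced within brain and within liver. The part of the set in the calls within those tissues and in the interaction was not tested. The members and lists were chosen with earlier results of these data known. Named genes were called genes of higher level and equal sign in every tissue, up to 4 called and 2 uncalled members per list, the largest tissue contrasts, and a set of macrophage and globin genes. Alternatives changed the floor, filter, scaling, weights, libraries and ages used. Promoters came from the RefSeq table (GRCm38.p6).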

Additional observations from a re-analysis of the deposited data

Results flagged for a closer look

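The age difference was tested for a difference between tissues, and 231 genes passed the F test with all 12 libraries and none without brain E12.5 replicate 1. Against the mean age difference of the other tissues, brain was higher by 5.66 (log2) for Plxna3, 5.59 for Nnat, 5.53 for Wdr47 and 5.48 for Map2. Liver was higher by 7.57 for Slc4a1, 7.48 for Tmcc2, 7.22 for Alas2 and 6.98 for Hemgn. Each group held 2 libraries, and several of these genes were at the floor in all libraries of another tissue. Neural genes were high in both brain E12.5 libraries and erythroid genes in both liver E12.5 libraries, and their part was not tested.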

How the results depend on the processing

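Hp and Tuba1a were called in all 12 fits that left out 1 library. Leaving out all brain libraries gave 5 genes, of which 2, Hbb-bs and Cxcl16, were among the first 5, and the calls of Hp, Tuba1a and Tspan7 were lost. The count of 5 called genes over the 3 tissues became 11 with a floor 1 log2 unit higher, 16 with no floor, 2 with no filter, 3 with a stricter filter, 8 with 1 transcript per gene, 15 with libraries centred on their detected median (13 higher and 2 lower), 12 without the intensity trend, 70 with array quality weights (38 higher and 32 lower, against 4 and 1), 157 with E10.25 added to the early group and 9 with E10.25 in its place. It was 20 without limbs, 0 without liver, 0 within the smaller set of libraries, and 2 to 47 with 1 library left out. Centring moved the median of all genes from 0.041 to 0.204. The replicate numbers did not pair libraries (correlations 0.012 in brain, 0.101 in limbs and 0.028 in liver), and the replicate block gave 3 genes, without Cxcl16 and Tspan7, and 0 for the interaction. The smaller set, the centring within single tissues and of the interaction, the libraries left out between E14.5 and E10.25 and the list counts without brain E12.5 replicate 1 were alternatives chosen after seeing the data. A fit within the larger set was not run, since 4 libraries left no residual degrees of freedom.

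Within brain the count was 221 with the higher floor, 860 with centring and 0 to 594 with 1 library left out. It was 0 to 68 within limbs and 10 to 268 within liver with 1 library left out. The brain contrast gave 0 with the higher floor, 567 with centring and 0 to 225 with 1 library left out, the liver contrast 58, 56 and 0 to 137, and the interaction 32, 524 and 0 to 157. E14.5 against E10.25 gave 5 with the higher floor and 0 to 4 with 1 library left out. The excess of 628.3 detected transcripts at E12.5 (exact two-sided permutation p = 0.5, smallest possible 0.00926) became -146.5 with the higher floor (p = 0.778). Without brain E12.5 replicate 2, most genes called within brain and in the brain contrast were lower, against most higher with all libraries. In each of these the cause was not tested.

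Some genes without a call changed sign. Timd4 became -0.139 with quantile normalization, -0.413 within the smaller set and -0.402 without liver. Hbb-y became 0.096 with quality weights, 1.475 within the smaller set, 0.987 without brain and 0.161 without limbs. Id3 became -0.161 with E10.25 in place of E10.5, Mrc1 0.031 and Kit -0.302 without brain, and Csf1r -0.311 without limbs and -0.337 without liver. With 1 library left out the ranges were -0.1 to 0.967 for Csf1r, -0.016 to 1.204 for Cx3cr1, -0.097 to 0.465 for Timd4 and -1.253 to 0.63 for Hbb-y. Tuba1b became -0.05 with quantile normalization and -0.704 without liver, and ranged from -0.256 to 0.494 with 1 library left out. Tuba1c became 0.53 with quality weights, 0.295 within the smaller set, 0.084 with E10.25 in place of E10.5, 0.495 without brain and 0.164 without limbs, and ranged from -0.625 to 0.347. Between E14.5 and E10.25 the ranges with 1 library left out were -1.027 to 2.476 for Cxcl16, -1.092 to 1.782 for Tspan7 and -0.154 to 1.268 for Tuba1a.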
